A study of Mus musculus with 9 samples.

Results

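The genes described here were those whose mRNA was higher in preleptotene (PL) spermatocytes than in In/B differentiating spermatogonia in every library, whether the mice that gave the PL spermatocytes were RA-sufficient or RA-deficient. RA is retinoic acid. Levels are given as CPM, the reads of a gene in every 1000000 reads counted on genes in that library. A gene was a member when its lowest CPM over the 6 PL libraries was at least 5 and at least 4 times its highest CPM over the 3 In/B libraries. This rule was met by 95 of 24505 genes (0.388%), or 1.07% of the 8858 genes at 5 CPM or more in all 6 PL libraries, which are called genes past the floor below. The rise over In/B therefore chose the members and is given as a description with no test, and it bears on the difference between the PL groups too: the lowest of all 6 PL values had to pass both the floor and the fold limit, so a gene much lower in either PL group was kept out.

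Preleptotene spermatocytes are the last germ cells of the male line to replicate their DNA before meiotic prophase. They form from type B spermatogonia, and as they do so they begin to make the proteins that organise chromosomes into loops along an axis, break and repair DNA by recombination, and attach telomeres to the nuclear envelope. RA made from vitamin A is known to start spermatogonial differentiation, and it also induces Stra8, which encodes a regulator of meiotic entry.

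All 9 libraries came from Uchl1-eGfp mice, a C57BL/6 transgenic line outcrossed to CD-1, in which EGFP made from the Uchl1 promoter is bright in spermatogonia and dim in PL spermatocytes, so that both were sorted by fluorescence. Every mouse, controls included, had received daily WIN 18,446, an inhibitor of RA synthesis, at 100 µg per g body weight from postnatal day (P) 1, until P10 by the series' design text or P11 by the sample records, and then 10 µl of RA at 10 µg per µl at P11. The In/B group held 3 libraries of EGFP-bright cells taken at P17, which the sample records also call type B spermatogonia. The paper describes the In/B cells as RA-sufficient, and the series holds no RA-deficient In/B group. RA-deficient PL thus differs from In/B in treatment as well as in stage. The RA-sufficient PL group held 3 libraries of EGFP-dim cells taken at P19 after no further WIN 18,446. The RA-deficient PL group held 3 libraries of EGFP-dim cells taken at P19 from mice that went on receiving WIN 18,446 each day until euthanasia, and so had also had the RA injection at P11. Testes of at least 5 pups of a litter were pooled, and which library came from which cell preparation was not stated, so p-values measure the spread between these libraries, which may be technical.

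Between 12612959 and 27042274 reads were counted per library, at which 3 reads correspond to 0.111 to 0.238 CPM. The mean level of the recombinase gene Dmc1 was 86.2 CPM in In/B, 607 in RA-sufficient PL and 483 in RA-deficient PL, and that of Prdm9, which sets the sites of meiotic breaks, was 95.7, 515 and 586 CPM. Both genes were thus higher in each PL group than in In/B. The levels of Stra8, Rec8 and Meioc, also chosen as markers of meiotic entry, are not given here. Markers of Sertoli cells, the somatic support cells of the tubule, summed to 4497 to 6428 CPM in RA-sufficient PL against 217 to 623 in In/B and 556 to 850.2 in RA-deficient PL, and all 15 measured were called lower in RA-deficient PL. In the same order of groups, markers of peritubular, stromal and endothelial cells summed to 1100.1 to 1529.6, 129 to 184 and 190.2 to 243 CPM. Sparc and Vim made up most of that sum in RA-sufficient PL and were the 2 of 14 called lower in RA-deficient PL, Col1a1 was called higher, and the median log2 fold change of the 14 was 0.06. Markers of Leydig cells summed to 125 to 145, 12.5 to 24.4 and 17.9 to 32.3 CPM, and those of macrophages and blood to 7.85 to 16.2, 4.62 to 5.35 and 3.81 to 7.75 CPM. No gene of these 4 lists was a member. Genes of differentiating spermatogonia such as Kit, Sohlh1 and Dmrt1 summed to 4088 to 6015 CPM in In/B and 914 to 1049 in RA-sufficient PL. They summed to 3008, 3138 and 1282 CPM in RA-deficient PL replicates 1, 2 and 3. All 3 RA-deficient libraries thus lay above every RA-sufficient one, although they did not match one another. Of the 10 genes, 5 were called higher in RA-deficient PL (Kit, Sohlh1, Sohlh2, Dmrt1 and Uchl1) and 1 lower (Ccnd2). Stem and progenitor spermatogonia genes summed to 247 to 396 CPM in RA-sufficient PL and 435 to 545 in RA-deficient PL. Their sum in In/B was 423 to 780.1 CPM. Of these 16 genes, 5 were called higher in RA-deficient PL and 0 lower. In sorted cells measured in bulk, a change in the number of cells of a type and a change in mRNA per cell cannot be told apart.

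Together the 95 members took up 0.141% to 0.190% of the reads of an In/B library and 1.39% to 2.04% of those of a PL library. Their summed level was 1413, 1904 and 1896 CPM in In/B, 13894, 17978 and 18211 CPM in RA-sufficient PL, and 14464, 14909 and 20431 CPM in RA-deficient PL, each in the order of replicates 1 to 3. RA-sufficient PL replicate 1 was the lowest of its group and RA-deficient PL replicate 3 the highest of its group, and the PL groups overlapped. The median member had a group mean of 10.3 CPM in In/B, 130.3 CPM in RA-sufficient PL and 107 CPM in RA-deficient PL. The fold of the group mean over In/B had a median of 10.2 (range 5.18 to 87.1) in RA-sufficient PL and 10.6 (range 5.11 to 69.0) in RA-deficient PL; both are taken over the same In/B libraries.

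Few members lacked reads in the In/B libraries. Only 5 had under 1 CPM in every In/B library, none had 3 reads or fewer in all 3 of them, and 52 already had at least 5 CPM in each. Most were therefore present at a lower level in the In/B libraries. Whether these reads came from spermatogonia or from PL cells in the sort was not tested. At the other end, 40 members were at 100 CPM or more in every PL library, and 5 genes (Kmt2c, Nipbl, Bod1l, Eml5 and Sycp3) made up 25.7% of the members' summed PL level. Per kb of exon, the highest means over all 6 PL libraries were those of Ly6k (601 CPM per kb), Sycp3 (432), Inca1 (231), Cbwd1 (151) and Rbpms2 (148). The order was not the same in each group: in RA-sufficient PL Sycp3 (428 CPM per kb) lay above Ly6k (362), and in RA-deficient PL Ly6k (841) lay above Sycp3 (436).

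**Figure D1:**
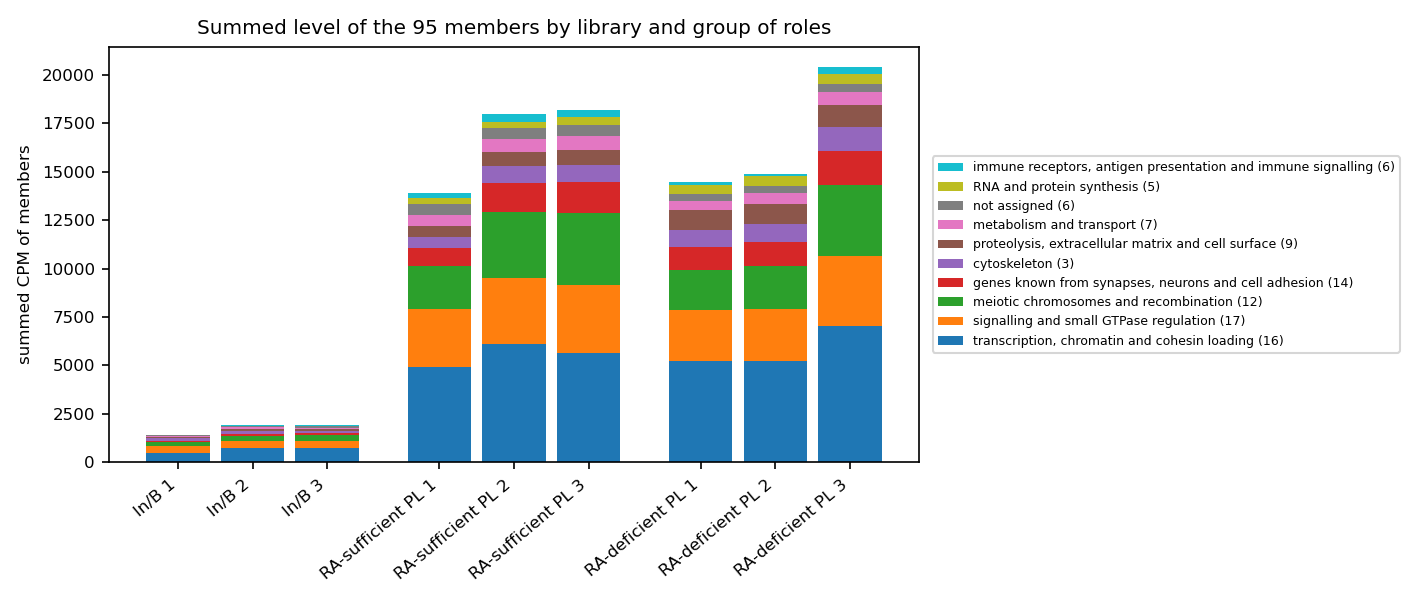
Summed CPM of the 95 members (y axis, linear from 0) in each of the 9 libraries (x axis), with each bar divided by what the encoded proteins are known to do and the number of members in each group of roles in the key. The In/B libraries reach 1413 to 1904 CPM and the PL libraries 13894 to 20431 CPM, with RA-sufficient PL 1 the lowest and RA-deficient PL 3 the highest of the 6.

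At the fold limit, Baiap2l1 (4.03), Syn1 (4.05) and Sycp3 (4.05) lay just inside and Fmnl3 (3.99), Atraid (3.98) and Sirt7 (3.96) just outside by the ratio of the lowest PL to the highest In/B value. At the floor, Espnl (5.31 CPM) and Gm20324 (5.40 CPM) lay just inside and Glt8d2 (4.98 CPM) and Sapcd1 (4.76 CPM) just outside by the lowest PL value. The median ratio among members was 5.68 and the highest 41.2, so many members lay near the limit. With the limit at 2 times it would hold 400 genes and at 8 times 27.

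The largest ratio was that of Rad51ap2, which encodes a protein of meiotic recombination. Its level was 1.36, 1.91 and 2.09 CPM in In/B, 91.5, 192 and 184 CPM in RA-sufficient PL and 89.7, 86.3 and 195 CPM in RA-deficient PL. Celf6, an RNA-binding protein of the CELF family that acts on splicing and mRNA stability, was at 0.237, 0.262 and 0.465 CPM in In/B, 12.4, 15.6 and 19.2 in RA-sufficient PL and 13.1, 17.3 and 33.8 in RA-deficient PL. For both genes the values of the PL groups overlapped, and RA-deficient PL replicate 3 was the highest of its group. Traf5, an adaptor of tumour necrosis factor receptors, was at 0.872 to 0.974 CPM in In/B and at 20.7 to 33.7 CPM over the 6 PL libraries. Pparg, a nuclear receptor best known from fat cells, was at 1.72, 1.46 and 1.34 CPM in In/B, 31.3, 41.8 and 49.3 in RA-sufficient PL and 58.5, 50.7 and 64.6 in RA-deficient PL. The order then ran on through Pbx3, Unc13a, Meiob, Fbxo47, H2-Ab1, Gab2, Rbpms2 and Msh5, of which only Meiob, Fbxo47 and Msh5 are best known from meiosis.

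**Figure D2:**
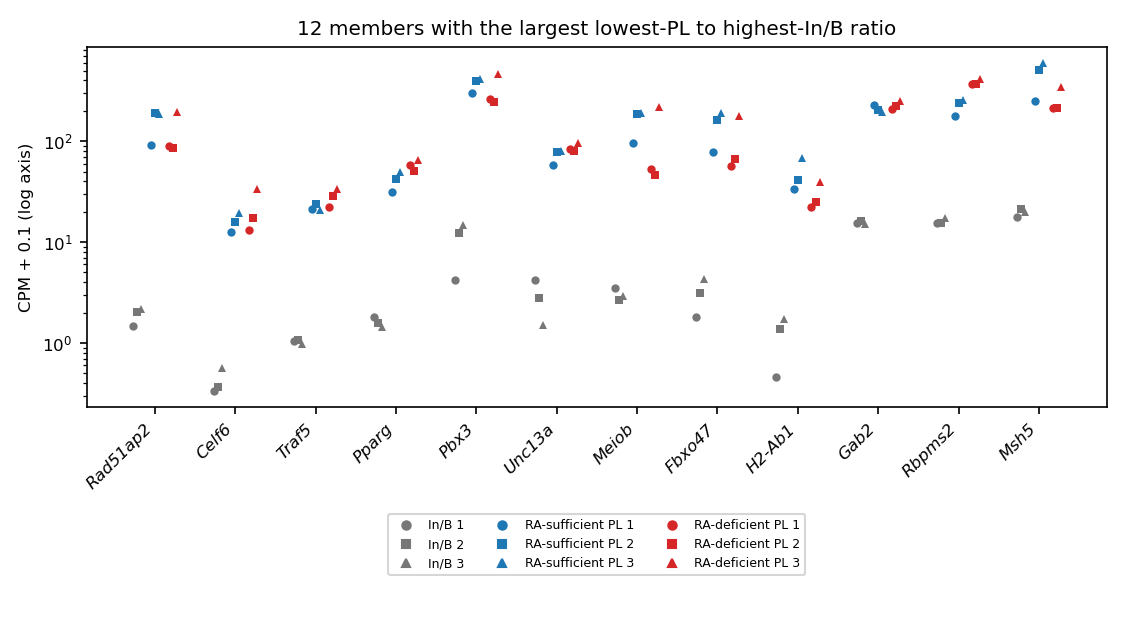
CPM plus 0.1 (y axis, log scale) of the 12 members with the largest ratio of the lowest PL value to the highest In/B value, 1 column per gene. Each point is a library, coloured by group and shaped by replicate. Every PL point lies above every In/B point of the same gene by the rule, and RA-deficient PL 3 is the highest point of its group for each of these 12 genes.

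The promoters of the first 4 of these genes are shown because they stood lowest in In/B relative to PL. Each runs from 250 bases before to 50 bases after the annotated start, 5′ to 3′ on the strand of the gene, from RefSeq on the build GRCm38.p6, which is not the build of the counts. They lie at chr12:11455805-11456104 (plus strand, Rad51ap2), chr9:59578087-59578386 (plus, the first of 2 starts of Celf6), chr1:192092550-192092849 (minus, Traf5) and chr6:115360894-115361193 (plus, the first of 3 starts of Pparg). Capitals mark every match, on either strand, to the motifs searched.
Rad51ap2: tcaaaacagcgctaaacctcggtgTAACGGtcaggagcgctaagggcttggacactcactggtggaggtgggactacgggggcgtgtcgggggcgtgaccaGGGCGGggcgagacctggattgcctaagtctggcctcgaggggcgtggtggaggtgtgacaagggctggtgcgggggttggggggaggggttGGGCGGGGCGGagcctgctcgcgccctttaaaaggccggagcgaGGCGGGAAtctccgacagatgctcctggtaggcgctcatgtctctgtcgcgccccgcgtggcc
Celf6: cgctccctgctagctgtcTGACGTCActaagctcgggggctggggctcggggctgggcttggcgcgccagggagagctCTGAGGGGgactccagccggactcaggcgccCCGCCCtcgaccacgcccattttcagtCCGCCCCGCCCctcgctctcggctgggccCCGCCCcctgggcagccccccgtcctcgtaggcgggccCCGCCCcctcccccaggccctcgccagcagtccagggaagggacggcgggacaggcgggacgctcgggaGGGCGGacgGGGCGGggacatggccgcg
Traf5: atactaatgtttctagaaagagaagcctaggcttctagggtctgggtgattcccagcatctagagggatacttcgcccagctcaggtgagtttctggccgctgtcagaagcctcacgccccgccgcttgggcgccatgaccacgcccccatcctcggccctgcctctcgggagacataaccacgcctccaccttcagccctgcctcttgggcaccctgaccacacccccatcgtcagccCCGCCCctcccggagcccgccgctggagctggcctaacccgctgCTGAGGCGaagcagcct
Pparg: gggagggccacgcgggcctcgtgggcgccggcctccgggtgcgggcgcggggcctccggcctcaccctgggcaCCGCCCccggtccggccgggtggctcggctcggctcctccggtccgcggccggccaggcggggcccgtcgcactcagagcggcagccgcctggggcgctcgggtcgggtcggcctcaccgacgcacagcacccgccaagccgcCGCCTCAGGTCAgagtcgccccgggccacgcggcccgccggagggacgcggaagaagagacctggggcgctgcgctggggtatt

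All 4 windows were rich in G and C (67.0%, 76.7%, 63.7% and 80.3% in the order above) and held 26, 31, 17 and 44 CpG. The motif CNCCTCAG, described at promoters bound by STRA8, matched in Celf6 (172 bases before the start, read on the opposite strand), Traf5 (34 bases after the start, opposite strand) and Pparg (34 bases before the start), and in 7.94% of all 32851 windows of the table. In Pparg it shared its last 2 bases with AGGTCA, the core letters of RA response elements, which 16.3% of windows hold; no window shown held a pair of AGGTCA copies spaced as in such elements, a pattern found in 0.00913% of windows for each spacing searched (2 and 5 bases). Rad51ap2 held a match to TTCCCGCC, the E2F motif (2.19% of windows), 13 bases before the start and to TAACGG, 1 of 4 MYB motifs searched (2.76%), whereas Celf6 held TGACGTCA, the cAMP response element (1.79%). GC boxes (GGGCGG, 35.7%) matched 3 times in Rad51ap2, 7 times in Celf6 and once each in Traf5 and Pparg. CACGTG (7.15% of windows), GCGGGAAA (1.07%), CAACTG (13.7%), CAACGG (5.12%), TAACTG (10.1%), GTTGCCAT (1.35%), TATAAA (13.6%) and the NRF1 motif (4.60%) were not in any of them. A match is a description of letters and not of a site in use. Only 68 of the 95 members (71.6%) have an entry in the promoter table, too few for a share over the members to be given.

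The PL groups show whether these genes reached the same level in the sorted pools when RA synthesis stayed blocked. The pools also differed in the markers of Sertoli cells and of differentiating spermatogonia given above, whose part in the difference was not tested. All 95 members entered the comparison, in which RA-deficient PL was set against RA-sufficient PL over 15352 genes with edgeR's quasi-likelihood test, n = 3 libraries each. To be called, a gene had to change by more than 2-fold in either direction with a Benjamini-Hochberg adjusted p below 0.05. Log2 fold changes below are of RA-deficient over RA-sufficient PL after TMM scaling of the libraries, whereas the CPM are unscaled, so the ratio of CPM means and the fold change can differ. The TMM factors over all 9 libraries were 0.913 to 0.933 in RA-deficient PL and 1.04 to 1.08 in RA-sufficient PL. Scaling divides by them and so raises RA-deficient values relative to RA-sufficient ones. Whether the PL groups overlap in CPM can therefore change with scaling. Of the members, 4 were called higher in RA-deficient PL (Chd9, Syn1, Ly6k and Ccdc64), beside 4.47% of all genes tested, and 1 lower (Gm20324), beside 11%. The 5 called members were 5.26% of the set, beside 15.5% of all genes tested (687 higher and 1696 lower) and 13.1% of the genes past the floor. Since the rule kept out genes that were low in either PL group, these shares are given side by side and nothing is read from the difference between them. With scaling by library size alone the split was 3 higher and 2 lower among members and 426 higher and 2003 lower among all genes, and with RLE factors it was 4 and 0 among members.

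A call that fails does not show that a gene was alike in both groups, so the 95% interval of the fold change was read as well. It lay wholly within a fold of 2 for 51 members (53.7%), beside 31.8% of all genes tested and 54.6% of the genes past the floor. These 51 are the members measured closely enough to say that their levels differed by less than 2-fold. The other 39 were neither called nor within these bounds. The median log2 fold change was 0.13 for the members, −0.09 for all genes tested and 0.10 for the genes past the floor. The median absolute log2 fold change was 0.31, 0.62 and 0.42 in the same order, and the median standard error 0.24, 0.34 and 0.22. Scaling by library size alone moved the median of all genes to −0.27 and that of the members to −0.06.

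Read by unscaled CPM, the 3 RA-deficient libraries lay above all 3 RA-sufficient libraries for 11 members (11.6%; 13.1% of all genes with both groups measured and 17.8% of the genes past the floor) and below them for 10 (10.5%; 34.3% and 28.5%). The remaining members overlapped between the groups.

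**Figure D3:**
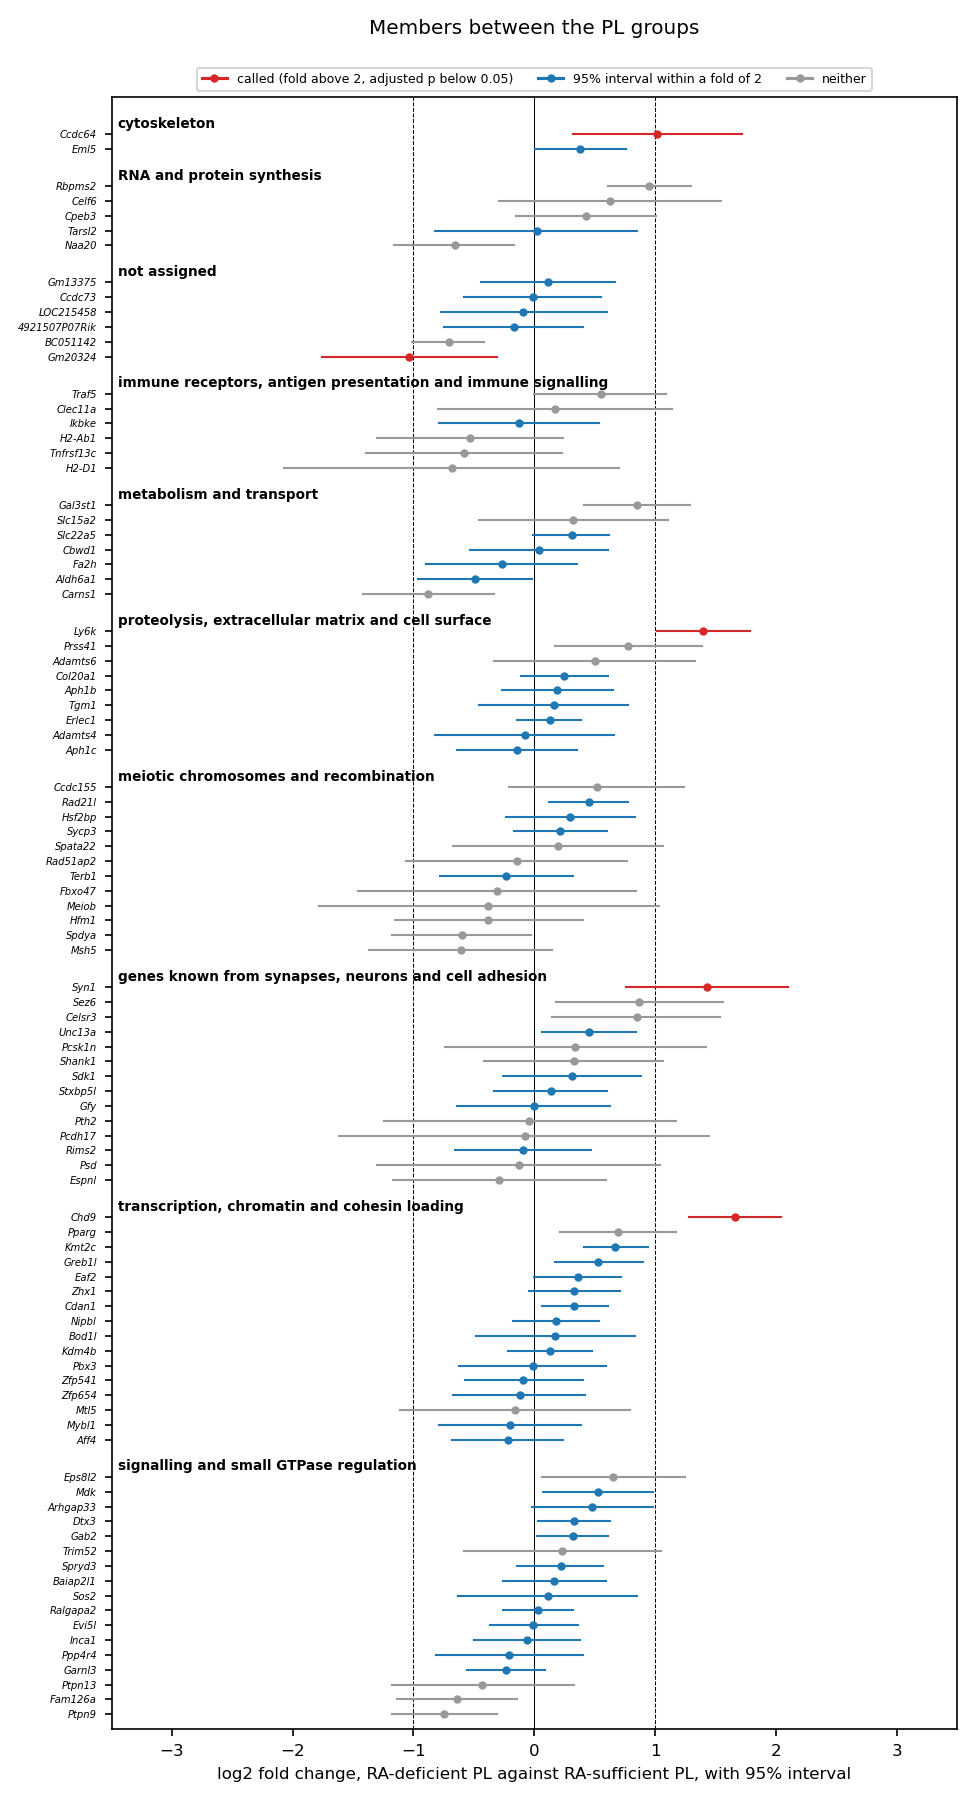
Log2 fold change of RA-deficient over RA-sufficient PL (x axis) with its 95% interval from edgeR's quasi-likelihood fit for 94 of the 95 members (rows, 1 gene each, grouped by role). Red marks the 5 called members, blue the 51 whose interval lies between the dashed lines at a fold of 2 in either direction, and grey 38 of the other 39.

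Of the called members, Chd9, an ATP-dependent chromatin remodeller of the CHD family, stood farthest apart. Its level was 7.41, 11.3 and 10.1 CPM in In/B, 71.9, 70.3 and 77.3 CPM in RA-sufficient PL and 179, 183 and 249 CPM in RA-deficient PL. The PL groups did not overlap, and each RA-deficient library was more than 2 times every RA-sufficient one. The log2 fold change was 1.66 ± 0.16 (SE, n = 3 libraries; adjusted p = 0.00127, edgeR's quasi-likelihood test), and Chd9 was the only member called in every alternative tried, a test against a 2-fold change included.

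Ly6k encodes a surface protein anchored by a lipid that is found in testis and is needed for sperm to enter the oviduct. It was at 18.1, 43.9 and 39.2 CPM in In/B, 225, 317 and 357 CPM in RA-sufficient PL and 673, 693 and 724 CPM in RA-deficient PL. The PL groups did not overlap (log2 fold change 1.40 ± 0.16, SE; adjusted p = 0.00221, edgeR). Syn1, the synaptic vesicle protein synapsin I, was at 18.9, 13.4 and 14.6 CPM in RA-sufficient PL and at 48.0, 36.8 and 26.6 CPM in RA-deficient PL, after 2.49 to 3.30 CPM in In/B. Here too the groups did not overlap (1.43 ± 0.29, SE; adjusted p = 0.0136, edgeR), although the lowest RA-deficient value was replicate 3. Syn1 shares exon bases with Araf on the opposite strand, and whether strand was used in counting was not stated, so part of its reads could be those of Araf.

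Ccdc64, also named Bicdl1, encodes an adaptor that links cargo to dynein. It was at 113, 164 and 211 CPM in RA-sufficient PL and at 217, 241 and 408 CPM in RA-deficient PL, so that the groups came within 6 CPM of each other (1.02 ± 0.30, SE; adjusted p = 0.0463, edgeR). The predicted gene Gm20324 was at 16.3, 17.5 and 17.3 CPM in RA-sufficient PL and at 6.92, 5.40 and 9.62 CPM in RA-deficient PL (−1.04 ± 0.31, SE; adjusted p = 0.0489, edgeR). Both calls lay close to the limits. Ccdc64 was no longer called when any 1 of the 6 PL libraries was left out, and Gm20324 stayed called only when the library left out was RA-deficient PL replicate 3. At an adjusted p below 0.05 with no limit on the fold, 13 members passed, 9 of them higher and 4 lower. Beside the 5 above these were Rbpms2 (0.95), Gal3st1 (0.85), Pparg (0.69), Kmt2c (0.67) and Greb1l (0.53), which were higher, and Carns1 (−0.88), Ptpn9 (−0.75) and BC051142 (−0.71), which were lower.

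**Figure D4:**
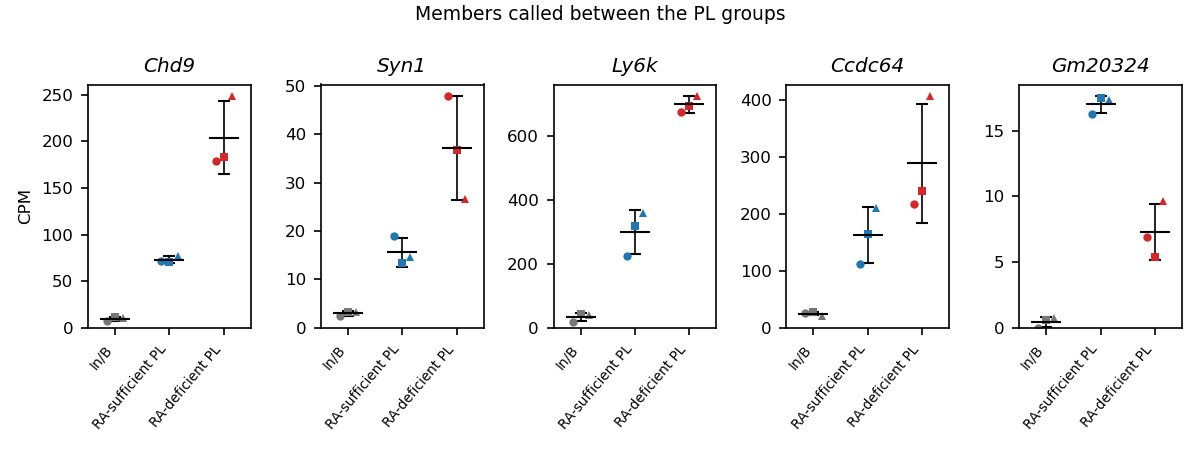
CPM (y axes, linear from 0) of the 5 members called between the PL groups, 1 panel per gene, with points for the 3 libraries of each group (circle, square and triangle for replicates 1, 2 and 3) and bars for the mean ± SD. The PL groups do not overlap in any panel, with RA-deficient PL higher for Chd9, Syn1, Ly6k and Ccdc64 and lower for Gm20324.

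The members were then described by what their proteins are known to do, in groups assigned after their values had been seen. The 12 with roles on meiotic chromosomes were higher together in both PL groups, from a summed 218, 257 and 272 CPM in In/B to 2221, 3421 and 3711 CPM in RA-sufficient PL and 2081, 2230.0 and 3703 CPM in RA-deficient PL. None of the 12 was called between the PL groups, and the interval lay within a fold of 2 for 4 of them, with log2 fold changes from −0.61 to 0.52. Intervals within a fold of 2 were found for 53.7% of all members and 54.6% of the genes past the floor. Calls were made for 5.26% and 13.1% in the same order. These shares also stand beside the counts for the groups of roles below. On the chromosome axis, Rad21l, a meiotic cohesin subunit, was at 12.7 to 15.6 CPM in In/B, 151 to 196 in RA-sufficient PL and 193 to 225 in RA-deficient PL (0.45, 95% interval 0.12 to 0.78). Sycp3, which builds the axial element of the synaptonemal complex, was at 85.8, 103 and 107 CPM in In/B, 434, 553 and 636 in RA-sufficient PL and 518, 497 and 640.2 in RA-deficient PL. Its interval, −0.17 to 0.60, lay within a fold of 2. Sycp3 shares exon bases with Chpt1 on the opposite strand.

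Among the recombination genes, Meiob and Spata22 encode partners that bind single-stranded DNA at breaks, and Hsf2bp encodes a protein that brings BRCA2 to them. Meiob was at 95.2, 187 and 189 CPM in RA-sufficient PL and at 53.5, 46.4 and 217 CPM in RA-deficient PL, after 2.59 to 3.38 CPM in In/B. RA-deficient replicates 1 and 2 were therefore under every RA-sufficient value and replicate 3 above all of them, and the interval was correspondingly wide (−0.38, 95% interval −1.78 to 1.03). Spata22 was at 132, 245 and 257 CPM against 148, 156 and 334 CPM (0.20, −0.67 to 1.07), and Hsf2bp at 103, 174 and 183 against 141, 161 and 194 (0.30, −0.23 to 0.83). The crossover genes Msh5, a subunit of the MutS gamma clamp, and Hfm1, a DNA helicase, likewise had RA-deficient replicates 1 and 2 under every RA-sufficient value, but their replicate 3 lay within the RA-sufficient range. Msh5 went from 17.5 to 21.1 CPM in In/B to 253, 504 and 591 in RA-sufficient PL and 212, 214 and 346 in RA-deficient PL (−0.61, −1.37 to 0.15), and Hfm1 from 23.5 to 26.5 to 368, 554 and 550.0 and to 225, 249.9 and 517 (−0.38, −1.15 to 0.40).

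At telomeres, TERB1 tethers the chromosome end to the nuclear envelope, KASH5 (listed as Ccdc155) links it to dynein in the cytoplasm and the CDK2 activator Speedy A (Spdya) is needed for the attachment. Terb1 was at 158, 209.7 and 242 CPM in RA-sufficient PL and 116, 138 and 201 CPM in RA-deficient PL (−0.23, −0.78 to 0.32). Ccdc155 was at 202, 356 and 370.1 against 272, 342 and 551 CPM (0.52, −0.21 to 1.24). In unscaled CPM, Spdya was the meiotic member whose groups did not overlap, at 111, 133 and 154 against 54.4, 73.0 and 103 CPM. Divided by the TMM factors of their libraries, 1.08 and 0.913, the 111 and the 103 changed order and the groups overlapped. Spdya did not pass the test (−0.60, −1.18 to −0.03; adjusted p = 0.119, edgeR), and it shares exon bases with Trmt61b on the opposite strand. Fbxo47, an F-box protein needed to keep synapsed chromosomes together, was at 77.3, 161 and 192 against 57.3, 66.9 and 179.5 CPM (−0.31, −1.46 to 0.84).

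Most other genes of the same processes were not members. Over 6 lists of meiotic chromosome genes (axis, synaptonemal complex, double-strand breaks, strand exchange, crossover and telomere attachment) 72 genes were in the table and 11 of them were members. Of the rest, 56 were past the floor and 18 of these had a lowest PL value of more than 2 times the highest In/B value without reaching 4. Of the 60 non-members tested between the PL groups, 3 were called higher in RA-deficient PL (Trip13, Mei1 and Tex11) and 0 lower. Of all genes tested, 4.47% were called higher and 11% lower, and of the genes past the floor 5.59% and 7.55%. These shares also stand beside the counts called in the lists that follow. Each list had its own share of members: 2 of 10 axis genes, 0 of 7 genes of the synaptonemal complex central region, 0 of 9 break genes, 4 of 21 strand exchange genes, 2 of 15 crossover genes and 3 of 10 telomere genes. Outside these, members were 1 of 22 regulators of meiotic entry and RNA (Celf6), 3 of 22 spermatocyte transcription regulators and 1 of 14 ubiquitin and proteasome genes (Fbxo47). In the list of 20 RA target and RA metabolism genes there was no member, and of the 17 tested 6 were called lower in RA-deficient PL, Stra6 and Cyp26a1 among them, and 1 higher (Rarg). Among the 23 genes of the meiotic cell cycle, 20 of the piRNA pathway and 28 of DNA damage signalling there was likewise none, with 1, 5 and 0 called higher and 1, 0 and 0 lower.

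Transcription and chromatin regulators formed the group with the highest summed level, 16 members that went from 493 to 731 CPM in In/B to 4939.7 to 6097 in RA-sufficient PL and 5243 to 7061 in RA-deficient PL. For 13 of the 16 the interval lay within a fold of 2, and 1 (Chd9) was called. Kmt2c, an H3K4 methyltransferase, was the most abundant member by CPM in RA-deficient PL and, after Nipbl, the next in RA-sufficient PL, at 192 to 214 in In/B, 953, 1199 and 1000.4 in RA-sufficient PL and 1539, 1443 and 1453 in RA-deficient PL. The groups did not overlap and the adjusted p was 0.00759 (edgeR), yet the interval of its log2 fold change, 0.41 to 0.94, lay within a fold of 2. Nipbl, which loads cohesin on DNA, was at 1104, 1319.6 and 1207 CPM against 1052, 1103 and 1462 (0.18, −0.18 to 0.54).

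Mybl1 encodes A-MYB, the main transcription factor of pachytene spermatocytes. It was at 7.53 to 17 CPM in In/B, 179, 202 and 180.2 in RA-sufficient PL and 115, 109 and 206 in RA-deficient PL (−0.20, −0.79 to 0.39). Zfp541, part of a histone deacetylase complex of spermatocytes, was at 277, 386 and 400.4 against 249, 253 and 377 CPM (−0.09, −0.57 to 0.40). Pbx3, a homeodomain protein, was at 299, 393 and 413 against 259, 245 and 459 CPM (−0.01, −0.62 to 0.59). In unscaled CPM, RA-deficient replicates 1 and 2 of these 3 genes were again under every RA-sufficient value and replicate 3 was not. Divided by the TMM factors, the values of Zfp541 no longer had this order. Those of Pbx3 in replicate 1 of the PL groups were then about level. The interval excluded a change as large as 2-fold for Mybl1, Zfp541 and Pbx3. Pparg, whose values stand above, had groups that did not overlap and an interval that reached past a fold of 2 (0.69, 0.21 to 1.17; adjusted p = 0.0492, edgeR). Narrow intervals around small differences were found for Erlec1, a lectin of the endoplasmic reticulum (0.13, −0.14 to 0.39), Cdan1, which acts with the histone chaperone ASF1 (0.33, 0.06 to 0.61), Dtx3, a ubiquitin ligase of the Deltex family (0.33, 0.03 to 0.63), and Ralgapa2, a subunit of the GTPase-activating complex for Ral (0.03, −0.26 to 0.32), which with Kmt2c had the 5 narrowest.

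RNA-binding proteins were few. Rbpms2, which was at 15.2 to 17.1 CPM in In/B, had 177, 238 and 258 CPM in RA-sufficient PL and 367, 367 and 409 in RA-deficient PL. The groups did not overlap and the adjusted p was 0.00554, but the log2 fold change of 0.95 ± 0.15 (SE) was under the limit for a call. Celf6 had an interval of −0.29 to 1.55 around 0.63 and was not called. Cpeb3, a regulator of poly(A) tails and translation, was at 16.0 to 19.9 and 17.9 to 25.8 CPM in the PL groups. Naa20, the catalytic subunit of the N-terminal acetyltransferase NatB, was at 25.3 to 32.0 and 15.8 to 16.9 CPM with no overlap (−0.66, −1.16 to −0.17; adjusted p = 0.0601, edgeR), and Tarsl2, a threonyl-tRNA synthetase, at 42.8 to 86.7 and 34.0 to 62.5 CPM.

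A large group of 14 members is best known from synapses, neurons and cell adhesion, and was at 72.4 to 117 CPM in sum in In/B, 921 to 1616 in RA-sufficient PL and 1158 to 1740.1 in RA-deficient PL. It included the presynaptic proteins Unc13a, Rims2, Stxbp5l and Syn1, the postsynaptic scaffold Shank1, the adhesion proteins Sdk1, Celsr3 and Pcdh17, and the neuropeptide Pth2. Unc13a, which primes vesicles for fusion, was at 1.40 to 4.15 CPM in In/B, 58.4, 78.1 and 80.2 in RA-sufficient PL and 83.3, 80.4 and 96.8 in RA-deficient PL, with no overlap and an interval within a fold of 2 (0.45, 0.06 to 0.84). Sdk1 was the most abundant of the group, at 245, 438 and 473 against 358, 407 and 494 CPM (0.31, −0.26 to 0.88). Pcdh17 varied most between libraries, at 10.7, 46.6 and 46.2 against 16.3, 16.3 and 52.7 CPM, and its interval of −1.62 to 1.45 allows a difference of either direction. Syn1 was the only one of the 14 that was called, and 5 had intervals within a fold of 2. Psd and Pcsk1n share exon bases with Nfkb2 and Eras on the opposite strand.

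Genes of immune receptors and antigen presentation made up 6 members, none of them called and 1 (Ikbke) with an interval within a fold of 2. H2-D1, a class I molecule of the major histocompatibility complex, was at 3.91 to 4.68 CPM in In/B, 100.2, 220.4 and 223 in RA-sufficient PL and 50.7, 47.1 and 198 in RA-deficient PL (−0.68, −2.07 to 0.70). H2-Ab1, a class II chain, was at 0.356, 1.27 and 1.63 CPM in In/B, 33.3, 41.6 and 67.5 in RA-sufficient PL and 22.3, 24.9 and 39.3 in RA-deficient PL (−0.53, −1.30 to 0.24). H2-D1 belongs to a family of near-identical genes, so its reads may have been divided among copies. H2-Ab1 shares exon bases with H2-Aa on the opposite strand, so part of its reads could be those of H2-Aa. Tnfrsf13c, the receptor for the B cell survival factor BAFF, was at 51.1, 61.6 and 64.1 against 25.0, 23.6 and 55.2 CPM. Markers of macrophages and blood, whose sums stand above, were also higher in RA-sufficient PL than in either other group, with 4, 7 and 5 of 11 at 0 in every library of RA-sufficient PL, RA-deficient PL and In/B. Cd74, the class II invariant chain, was at 2.14, 1.33 and 1.33 CPM in RA-sufficient PL and at 0 in every RA-deficient library, and was the 1 of 4 tested that was called, lower. The part of these cells in H2-Ab1 and H2-D1 was not tested. Of 11 genes of antigen processing H2-D1 was the member, and among the other 10 the peptide transporter genes Tap1 and Tap2, with Tapbp and Psmb8, were called lower in RA-deficient PL and Psmb10 higher. Those 4 genes were lower in RA-deficient PL, as were the Sertoli markers, Sparc and Vim given above, whose part in them was not tested. In RA-sufficient PL replicates 1 to 3, the 11 antigen processing genes, H2-D1 included, summed to 736, 1143 and 1408 CPM. Sertoli markers summed there to 6428, 4497 and 4589.9 CPM. In RA-deficient PL the sums were 692, 689.8 and 726 CPM for antigen processing and 556, 575 and 850.2 CPM for Sertoli markers.

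Signalling proteins were the most numerous group, with 17 members, 0 called and 12 with intervals within a fold of 2. Gab2, an adaptor of receptor tyrosine kinases, was at 15.1 to 15.9 CPM in In/B, 227, 202 and 196 in RA-sufficient PL and 208, 224 and 253 in RA-deficient PL (0.32, 0.02 to 0.61). Inca1, an inhibitor of cyclin A1 and CDK2, was at 259.8, 365 and 411 against 261, 267 and 346 CPM (−0.06, −0.50 to 0.38). Baiap2l1, which bends membranes over actin, had the lowest ratio of any member and was at 41.3 to 44.2 and 34.7 to 46.0 CPM (0.16, −0.26 to 0.59). Of the protein tyrosine phosphatases, Ptpn9 was lower in RA-deficient PL (67.4, 53.8 and 50.6 against 28.6, 31.8 and 30.0 CPM; −0.75, −1.18 to −0.31; adjusted p = 0.0285, edgeR) without reaching the fold limit, and Ptpn13 was at 255, 296 and 288 against 131, 126 and 292 CPM.

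Proteases, matrix and surface proteins gave 9 members, of which Ly6k was called and 6 had intervals within a fold of 2. Adamts4 and Adamts6, metalloproteases of the matrix, were at 17.5 to 26.8 and 10.9 to 23.6 CPM in RA-sufficient PL and at 13.9 to 26.2 and 18.9 to 30.5 in RA-deficient PL. Aph1b and Aph1c, neighbouring copies of a gamma-secretase subunit on chromosome 9, were at 33.9 to 47.8 and 28.5 to 43.1 CPM in RA-sufficient PL and at 37.6 to 43.7 and 27.0 to 31.3 CPM in RA-deficient PL, and reads may have been divided between them. Of 7 genes of metabolism and transport, Carns1, which makes carnosine, was lower (50.9, 84.0 and 81.8 against 30.6, 32.7 and 40.4 CPM; adjusted p = 0.0339, edgeR) and Gal3st1, which makes sulfated glycolipids of germ cells, higher (73.9, 86.4 and 119.8 against 133, 163 and 148 CPM; adjusted p = 0.0191), both under the fold limit. Cbwd1, a zinc chaperone of a family with near-identical copies, was at 172, 226 and 257 against 159.9, 160.5 and 271 CPM. Beside Ccdc64 the cytoskeletal members included Eml5, a microtubule-binding protein at 443 to 660.4 and 617 to 730.4 CPM. The 6 members given no role had log2 fold changes of −1.04 to 0.11.

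The libraries of a group differed from one another in a shared way over these genes. RA-deficient PL replicate 3 was the highest of its group for 74 of 95 members (77.9%), beside 37.6% of the genes past the floor. RA-sufficient PL replicate 1 was the lowest of its group for 69 (72.6%, beside 41.9%), In/B replicate 1 for 61 (64.2%, beside 45.3%), and both PL statements held for 60 (63.2%, beside 20.6%). The median log2 ratio of RA-deficient replicate 3 to the mean of replicates 1 and 2 was 0.41 for members and −0.07 for genes past the floor, and that of the mean of RA-sufficient replicates 2 and 3 to replicate 1 was 0.41 and −0.00. For 26 members (27.4%, beside 7.76%), RA-deficient replicates 1 and 2 were under all 3 RA-sufficient values in unscaled CPM while replicate 3 was not. This count sets 1 PL group against the other and was not repeated after TMM scaling, which changes the order for some members, Zfp541 among them. These counts describe the libraries and were not tested, and a library that is low in a member made it harder for that gene to pass the rule.

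Among the genes of meiotic chromosomes, RA-deficient PL replicate 3 was the highest of its group for all 12 and RA-sufficient PL replicate 1 the lowest for 11, with median log2 ratios of 0.77 and 0.82. For the 6 immune members the medians were 0.96 and 0.41, and for the 14 members known from synapses, neurons and cell adhesion 0.61 and 0.76. In RA-deficient PL, Meiob was 4.35 times higher in replicate 3 than in the mean of the other two, H2-D1 4.05 times, Pcdh17 3.24 times and Fbxo47 2.89 times. At least 2-fold differences of this kind were found for 17 members in RA-deficient PL (3.05% of the genes past the floor), 9 in RA-sufficient PL (1.34%) and 6 in both. Farthest in the opposite direction in RA-deficient PL lay Sez6 and Tarsl2 (both 0.562 times), Slc15a2 (0.581 times), Prss41 (0.586 times) and Syn1 (0.627 times). Across the 95 members the log2 ratios within the groups had a Pearson r of 0.614, against 0.219 across the genes past the floor. The genes are not independent replicates, and the values of a group come from the same 3 libraries. RA-deficient replicate 3 also had the fewest reads of differentiating spermatogonia genes (1282 CPM against 3008 and 3138). RA-sufficient replicate 1 had the most of axoneme genes (6385 CPM against 2719 and 2247), of acrosome genes (2102 against 1128 and 998) and of Sertoli markers (6428 against 4497 and 4589.9), and axoneme genes summed to 552, 580.5 and 1493 CPM in RA-deficient PL. The part of any of these in the members' levels was not tested.

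**Figure D5:**
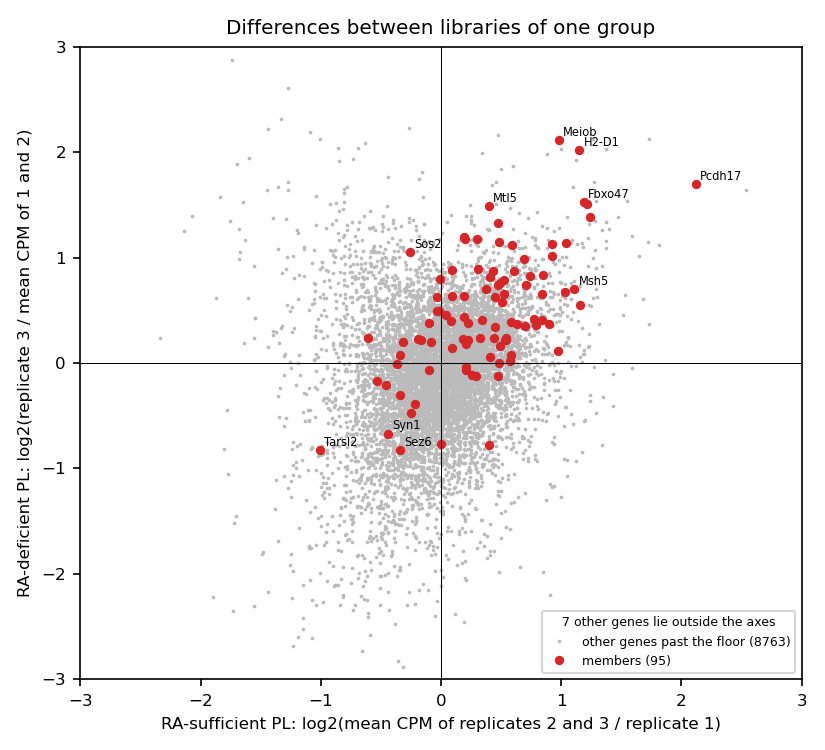
Log2 ratio of RA-sufficient PL replicates 2 and 3 (mean) to replicate 1 (x axis) and of RA-deficient PL replicate 3 to replicates 1 and 2 (mean) (y axis), for the 95 members (red) and the 8763 other genes past the floor (grey, 7 of them outside the axes). Members gather in the upper right, where 60 lie with RA-deficient PL 3 the highest and RA-sufficient PL 1 the lowest library of its group.

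Without both of these libraries, a choice made after their values were seen, 16 members (16.8%) were called between the PL groups, 5 higher and 11 lower, beside 27.1% of all genes (8.41% higher and 18.7% lower). Leaving out the highest RA-deficient and the lowest RA-sufficient library lowers the difference by construction. Meiob (−1.73), Fbxo47 (−1.32), Msh5 (−1.18) and Hfm1 (−1.03) were then among those called lower, and the log2 fold change was negative for 11 of the 12 genes of meiotic chromosomes, with a median of −0.77. The interval lay within a fold of 2 for 65 members, and the median over all 95 moved from 0.13 to −0.18. Without RA-deficient replicate 3 alone, 9 members were called (4 higher and 5 lower, Meiob and H2-D1 among the latter) beside 28.4% of all genes. Chd9, Ly6k and Syn1 were called higher in both cases.

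Positions on the mouse build NCBI37 (mm9) from GENCODE M1 were found for 92 members. Chromosome 17 held 9 of them (9.78%, against 4.90% of the genes past the floor), chromosomes 3 and 4 held none (4.66% and 6.35%), and the X chromosome held Syn1 and Pcsk1n (2.17%, against 3.51%). In 13 cases neighbouring members were less than 1000000 bases apart. The longest run lay in the major histocompatibility region of chromosome 17, where H2-Ab1 (34400154 to 34406363), BC051142 (34535765 to 34597679), Msh5 (35165550 to 35183690) and H2-D1 (35399675 to 35404444) follow one another. On chromosome 7, Pth2 ended 1786 bases from Ccdc155 and Clec11a 3294 bases from Shank1, and on chromosome 16 Slc15a2 ended 7922 bases from Eaf2. The median exon length was 4146 bases for members and 4071 for genes past the floor, and 39.1% and 36.5% had over 5000 exon bases. Exon bases were shared with a gene of the table on the opposite strand by 16 members and on the same strand by 3.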

How the data were processed

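The authors deposited 1 table of raw counts of reads per gene, with no normalization, for 24505 gene names in 9 libraries of poly(A) mRNA, all of whose columns were used. By the study's methods and processing notes, cutadapt 1.9 trimmed the single-end reads, STAR 2.5.2b aligned them to mm9 and featureCounts counted them. The study's methods name a stranded library kit, so the reads carried their strand. The gene annotation and the strand setting of the counting are not given in the sources used here. Whether the counts kept reads of a gene and of its antisense partner apart is therefore not known. Spreadsheet dates replaced 26 gene names and 2 names stand on more than 1 line, and none of these is named. A single member is not reported here by itself and is included in the counts.

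CPM were counts divided by the column total. The PL groups were compared with edgeR 4.0.16 in R 4.3.3 (TMM, filterByExpr, quasi-likelihood test, Benjamini-Hochberg adjustment over all genes tested, no covariate). The 95% intervals used the standard error implied by the quasi-likelihood F. The fit was also run on counts simulated for each gene independently. Such counts hold no deviation shared by many genes of a library, so the run cannot show how the intervals or calls behave under one. Alternatives were RLE factors, library size only, no filter, a filter at a mean of 50 counts, 1 fit of all 9 libraries, a replicate block, DESeq2 1.42.0, other limits for a call, and each library left out in turn. Depth, 12612959 to 27042274 reads, limits values under 0.238 CPM. Intervals cover the spread between libraries.

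The members, gene lists and rule for named genes were chosen with earlier results of these data known. Named by rule were the 12 members of largest ratio (lowest PL over highest In/B plus 0.1 CPM), members of the 22 lists, called members, those at the limits, the 5 highest per kb and the 5 narrowest intervals within a fold of 2. Other members named, and the groups of roles, were chosen after their values were seen.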

Additional observations from a re-analysis of the deposited data

Results flagged for a closer look

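The 5 members called between the PL groups are those for which the rise over the same In/B libraries differed between RA-deficient and RA-sufficient PL by the test between those groups. The log2 difference was 1.66 for Chd9, 1.43 for Syn1, 1.40 for Ly6k, 1.02 for Ccdc64 and −1.04 for Gm20324 (edgeR's quasi-likelihood test, adjusted p from 0.00127 to 0.0489). In each, all 3 RA-deficient libraries lay on the stated side of all 3 RA-sufficient libraries. Across the 6 fits that left out 1 PL library, the value ran from 1.49 to 1.77 for Chd9, whose adjusted p stayed at or under 0.00941, from 1.24 to 1.53 for Ly6k, from 1.22 to 1.63 for Syn1 (not called without RA-sufficient PL replicate 2 or 3), from 0.67 to 1.23 for Ccdc64 and from −1.28 to −0.84 for Gm20324. The groups hold 3 libraries each, too few for a check of single outlying libraries by their gap to the others.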

How the results depend on the processing

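Of the members, 5 were called between the PL groups, and 4 or 5 with RLE factors, library size only, no filter, a filter at a mean of 50 counts, 1 fit of all 9 libraries or DESeq2. With no limit on the fold there were 13 (3629 of all genes), at an adjusted p of at most 0.01 there were 2 (973) and in the test against a fold change of 2 there was 1 (741). Leaving out each PL library in turn gave 2 to 9 called members, 1190 to 4484 called genes overall (2383 with all libraries), 36 to 54 members with an interval within a fold of 2 (51) and medians of −0.05 to 0.20 (0.13). Without RA-deficient PL replicate 3 there were 9 called members and 4484 called genes, and without RA-sufficient PL replicates 1, 2 or 3 there were 1227, 1190 and 1283 called genes; without RA-sufficient replicate 2 there were 2 called members, and without RA-deficient replicate 1 or 2 there were 3 each time. Without RA-sufficient replicate 1 and RA-deficient replicate 3 together, an alternative chosen after seeing the data, 16 members and 4232 genes were called and the median was −0.18. The cause of these changes was not tested. With the replicate number as a block, 3 members (Chd9, Ly6k and Syn1) and 1765 genes were called. The replicate number is not stated to be a pairing. The same-numbered PL libraries deviated together by correlations of −0.07, 0.03 and −0.10. With 3 libraries a group, these values cannot exclude a shared litter or preparation. By sign, members with small differences turned over, 13 with library size only, 23 without both doubted libraries and 29 in at least 1 fit without 1 PL library. Of those the text names, with library size only these were Erlec1 (−0.06), Ralgapa2 (−0.15), Cbwd1 (−0.15), Baiap2l1 (−0.02), Nipbl (−0.01), Bod1l (−0.02), Clec11a (−0.01), Stxbp5l (−0.05) and Tarsl2 (−0.15). Without both doubted libraries they were Celf6 (−0.01), Spata22 (−0.54), Ccdc155 (−0.06), Hsf2bp (−0.05), Ralgapa2 (−0.11), Cbwd1 (−0.41), Sycp3 (−0.04), Sdk1 (−0.07), Nipbl (−0.04), Bod1l (−0.36), Pcsk1n (−0.17), Shank1 (−0.28), Clec11a (−0.40), Stxbp5l (−0.18) and Adamts6 (−0.03). Over single left-out libraries they were Rad51ap2 (−0.65 to 0.07), Pbx3 (−0.37 to 0.17), Spata22 (−0.30 to 0.41), Inca1 (−0.22 to 0.07), Zfp541 (−0.32 to 0.03), Ralgapa2 (−0.05 to 0.11), Cbwd1 (−0.27 to 0.18), Pcdh17 (−0.91 to 0.20), Psd (−0.84 to 0.17), Pth2 (−0.68 to 0.30), Rims2 (−0.39 to 0.05), Shank1 (−0.09 to 0.52), Stxbp5l (−0.04 to 0.29), Clec11a (−0.35 to 0.41), Bod1l (−0.19 to 0.35), Adamts4 (−0.40 to 0.12), Ikbke (−0.28 to 0.02) and Tarsl2 (−0.17 to 0.45). No named gene changed sign with RLE factors, DESeq2 or the block. The rule itself gave 95 genes with TMM-scaled CPM as well, 89 of them shared, 400 at 2 times, 27 at 8 times, 111 with a floor of 1 CPM, 88 with a floor of 10 CPM and 96 to 122 with any 1 of the 9 libraries left out. With 3 libraries a group, 39 members had intervals too wide to show either a call or a difference under 2-fold.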
